A study of Drosophila melanogaster with 2 samples.

Results

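Transcription factor genes that neural progenitors express in succession as they age were followed here: Dichaete (D), grainyhead (grh), eyeless (ey), sloppy paired 1 and 2 (slp1 and slp2) and scarecrow (scro). They were chosen by symbol, and all 6 were found among the 14210 genes of both deposited tables. RNA came from brains of Drosophila melanogaster larvae late in the third instar, as 1 library of osa RNAi cells and 1 library of wild type cells. The osa RNAi flies carried UAS-CD8::GFP, a membrane-bound green fluorescent protein, and the osa RNAi line TID:7810 of the Vienna stock centre (VDRC). The wild type flies, of the w1118 strain, carried UAS-CD8::GFP without the RNAi line. In both, worniu-Gal4 with ase-Gal80 drove the transgenes, a pair that is active in type II neuroblast lineages, and the brightest GFP cells were sorted. Eggs were laid over 24 h, and the animals were then kept for 5 days at 25 °C. By label the osa RNAi sort is made of type II neuroblasts, neuroblast-like revertant cells and intermediate neural progenitors (INPs). The wild type sort lacks the revertant cells and neurons and holds ganglion mother cells beside neuroblasts and INPs. The cell mixture therefore differs between the sorts by label.

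Type II neuroblasts are neural stem cells of the larval central brain that bud off INPs, and each INP divides several times to make ganglion mother cells and then neurons or glia. A newly matured INP contains the SoxB protein Dichaete, an older one the CP2-type factor Grainyhead and the oldest one the Pax6 protein Eyeless, so that neurons born at different times receive different identities. Neuroblasts of the optic lobe use an overlapping set of factors in another order, in which Eyeless comes before the forkhead proteins Sloppy paired 1 and 2, and these come before Dichaete. Scarecrow is an NK2-type homeodomain protein that also acts in optic lobe neuroblasts. Osa is a subunit of the SWI/SNF chromatin remodelling complex. In INPs the zinc-finger proteins Odd-paired (opa) and Hamlet (ham) are known to end the Dichaete and the Grainyhead stage in turn.

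Levels are given as FPKM (fragments mapped per kilobase of a transcript, relative to all mapped fragments of the library), with the authors' lower and upper bounds. The widths of these bounds implied 15707014 reads on genes in the osa RNAi library and 10114559 in the wild type library. The targeted gene osa had 15.6 FPKM (15.01 to 16.2) in the osa RNAi library and 31.3 FPKM (30.3 to 32.3) in the wild type library. Neither genotype has a second library, so no difference was checked against replicates or tested between genotypes. All intervals cover counting error only. In sorted bulk RNA, fewer cells of a type and less RNA per cell cannot be told apart.

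The INP factors D and ey were lower and grh was higher in the osa RNAi library, whereas slp1 and slp2 lay close to their wild type levels and scro was between these groups. A gene passed the 2-fold rule when log2(FPKM + 1) differed by at least 1, its mean FPKM was at least 1, both estimates were marked OK and the deposited bounds did not overlap. By this rule 1 of the 6 genes was higher, 2 were lower and 3 did not pass. Over all 7144 genes compared, 7.78% were higher and 6.79% were lower in osa RNAi, or 14.6% in either direction. The 6 genes and the gene lists below were picked with earlier results of these data known, so their shares past the rule are descriptions.

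**Figure D1:**
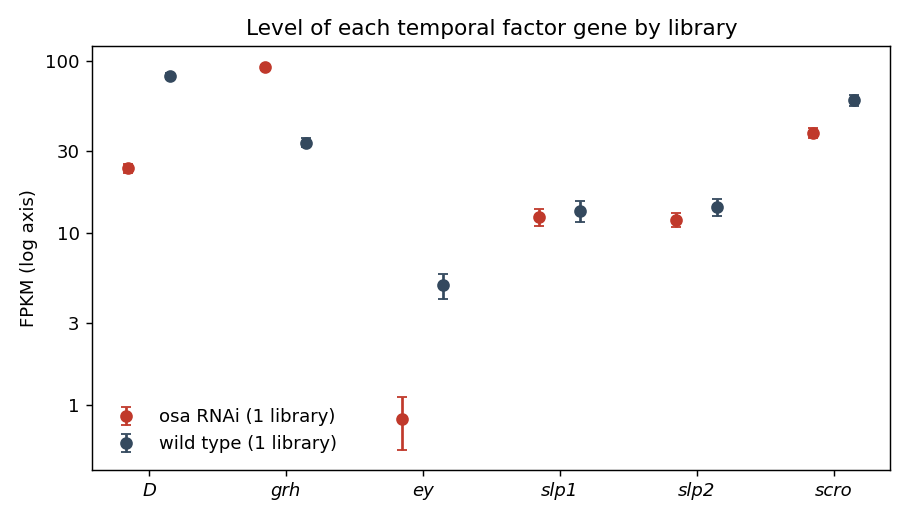
FPKM (log axis) of the 6 genes in the osa RNAi library (red, left of each pair) and the wild type library (dark, right); points are the deposited values of 1 library each and bars the deposited bounds. D and ey are lower and grh is higher in osa RNAi, from 0.828 FPKM for ey to 92.2 FPKM for grh, and the bars overlap for slp1 and slp2.

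D (FBgn0000411, 3L from 14168701 to 14171720, 1 transcript in the files) had 23.8 FPKM (22.4 to 25.2) in the osa RNAi library and 82.3 FPKM (79.1 to 85.5) in the wild type library. D was thus the most abundant of the 6 genes per length in wild type, and the bounds are far apart. The plain FPKM ratio was 3.46-fold lower in osa RNAi (95% interval 3.23 to 3.71), and log2(FPKM + 1) differed by −1.75. Some 1160 implied reads in osa RNAi and 2647 in wild type lie behind these values. Of the 7144 genes compared, 193 had a lower difference. D is the only one of the 6 among the 15 genes in the authors' deposited table, which lists genes at a false discovery rate of 0.01 by the authors' DESeq run on 1 library per genotype. There, in the authors' deposited table, D had 810 normalized counts in osa RNAi and 2947 in wild type, a wild type over osa RNAi fold of 3.64 (adjusted p = 0.00356).

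ey (FBgn0005558, chromosome 4 from 718315 to 741787, 4 transcripts) had 0.828 FPKM (0.542 to 1.11) in the osa RNAi library and 4.95 FPKM (4.12 to 5.78) in the wild type library. It was the least abundant of the 6 in both libraries. Its ratio was 5.98-fold lower in osa RNAi (4.11 to 8.71), and log2(FPKM + 1) differed by −1.70. Only 34 implied reads in osa RNAi and 143 in wild type stand behind it, which is why its interval is the widest of the 6. In osa RNAi, 3.85% of the genes compared had a lower FPKM than ey, against 20.95% in wild type. At a mean of at least 5 FPKM ey was not among the genes compared, and with a pseudocount of 5 its difference was −0.77, short of the rule.

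grh (FBgn0259211, 2R from 13690294 to 13729584, 8 transcripts) had 92.2 FPKM (89.5 to 94.9) in the osa RNAi library and 33.6 FPKM (31.6 to 35.6) in the wild type library. The ratio was 2.74-fold higher in osa RNAi (2.57 to 2.93), and log2(FPKM + 1) differed by 1.43. It rests on 4687 implied reads in osa RNAi and 1103 in wild type. Of the genes compared, 326 had a higher difference. grh thus moved opposite to D and ey, the genes on either side of it in the INP sequence. The tables give no value per transcript, so which of its transcripts carry the difference was not analysed.

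Grainyhead is found in type II neuroblasts as well as in INPs, and neuroblast markers also differed between the sorts. Of the 10 type II neuroblast marker genes, grh among them, 3 passed the rule as higher and none as lower. Their summed level, which includes grh itself, was 792 FPKM in osa RNAi and 499 FPKM in wild type, and none of them was at 0. The other genes past the rule were pointed (pnt), an ETS factor gene of type II lineages, at 53.3 and 13.8 FPKM in osa RNAi and wild type, and the cell cycle gene CycE, at 66.1 and 30.6 FPKM. The neuroblast factor genes dpn and wor had overlapping bounds, at 67.3 FPKM in osa RNAi and 61.97 in wild type for dpn, and 89.3 and 85.2 FPKM for wor. The rest of the list, insc, btd, tll, klu and mira, was higher with bounds apart but short of the rule. The part of neuroblast content in the grh difference was not tested. Set against dpn within each library, grh stood at 1.37 times the dpn FPKM (1.299 to 1.446) in osa RNAi and 0.542 times (0.499 to 0.589) in wild type. mira, a neuroblast gene, was itself higher (302 FPKM in osa RNAi and 192 in wild type). Against mira, grh stood at 0.306 times in osa RNAi and 0.175 times in wild type, a 1.75-fold difference (1.63 to 1.88). pnt was 3.85-fold higher in osa RNAi (3.48 to 4.26), more than the 2.74-fold of grh. A ratio of grh to pnt would therefore be lower in osa RNAi, so the outcome depends on the marker chosen.

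scro (FBgn0028993, 3LHet from 207493 to 252455, 4 transcripts) had 38.4 FPKM (35.9 to 40.9) in the osa RNAi library and 59.4 FPKM (55.2 to 63.5) in the wild type library. The bounds did not overlap, but the difference of −0.62 in log2(FPKM + 1) did not pass the 2-fold rule. The FPKM ratio was 1.55-fold lower in osa RNAi (1.41 to 1.70). Counted as shares of implied reads, the gene was 1.298-fold lower (1.18 to 1.42), an interval that barely meets that of the FPKM ratio. The files place scro on 3LHet, a heterochromatin sequence, while the RefSeq table of genome Release 6 has it on 3L.

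slp1 (FBgn0003430) and slp2 (FBgn0004567) encode closely related forkhead factors and are next to each other on 2L, at 3825680 to 3827137 and 3836842 to 3839201, with no listed gene in the 9704 bp between them. slp1 had 12.4 FPKM (11.0 to 13.8) in the osa RNAi library and 13.5 FPKM (11.6 to 15.3) in the wild type library. slp2 had 11.9 FPKM (10.8 to 13.0) in the osa RNAi library and 14.2 FPKM (12.6 to 15.7) in the wild type library. The deposited bounds overlap between the libraries for both genes. Plain ratios of osa RNAi over wild type were 0.920 (0.772 to 1.10) for slp1 and 0.842 (0.732 to 0.969) for slp2, so a 2-fold difference lies outside the counting interval of either gene. The pair also kept its proportion, with slp1 at 1.04 times slp2 (0.898 to 1.20) in osa RNAi and 0.951 times (0.801 to 1.13) in wild type. The genes listed on either side also had small differences, CG3407 with 4.53 FPKM in osa RNAi and 4.05 in wild type, and CG3964 with 4.97 and 4.75 FPKM in osa RNAi and wild type.

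Ordered by the ratio of osa RNAi over wild type, the genes ran ey (0.167), D (0.289), scro (0.647), slp2 (0.842), slp1 (0.920) and grh (2.74). The counting intervals of neighbours in this order were apart for 4 of 5 pairs and overlapped for slp2 and slp1. The place of ey and D depends on the scale, since on log2(FPKM + 1) D (−1.75) came before ey (−1.70). This order matches neither the INP sequence of D, grh and ey nor the optic lobe sequence of ey, slp1 and slp2, and D. Both ends of the INP sequence were lower, with its middle gene higher.

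**Figure D2:**
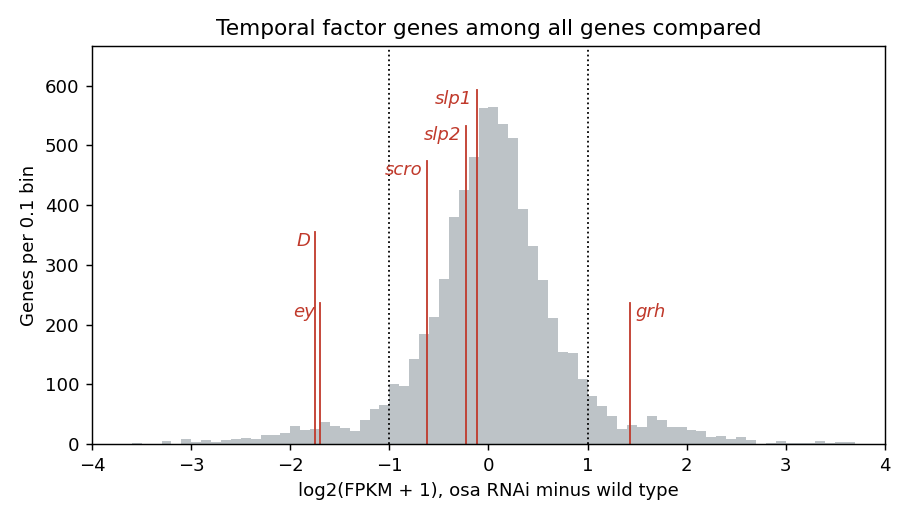
Histogram of the difference in log2(FPKM + 1), osa RNAi minus wild type, over the genes compared (grey, bins of 0.1; the few genes beyond the axis are not drawn), with the 6 genes as red lines whose heights only separate the names; dotted lines mark differences of −1 and 1. D (−1.75) and ey (−1.70) lie past the left line and grh (1.43) past the right one, with slp1 and slp2 near the centre.

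Within each library the order by level changed for 4 of the 6 genes. In osa RNAi it was grh, scro, D, slp1, slp2 and ey from high to low, and in wild type it was D, scro, grh, slp2, slp1 and ey. The bounds of slp1 and slp2 overlapped in each library, and all other neighbours were apart. The INP genes D, grh and ey summed to 117 FPKM in osa RNAi and 121 FPKM in wild type, nearly the same total with a different makeup. D made up 20.4% of this sum in osa RNAi and 68.1% in wild type. grh made up 78.9% in osa RNAi and 27.8% in wild type. ey made up 0.709% in osa RNAi and 4.10% in wild type. Grainyhead is also found in type II neuroblasts, so neither the sum nor the shares measure INPs alone.

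Ratios between genes of 1 library do not depend on how the libraries were scaled to each other. grh stood at 3.88 times D (3.64 to 4.14) in osa RNAi and at 0.408 times D (0.380 to 0.438) in wild type, a 9.51-fold difference (8.64 to 10.5). Against ey, grh stood at 111 times (79.3 to 156) in osa RNAi and 6.78 times (5.70 to 8.07) in wild type. D and ey changed more alike, with D at 28.7 times ey (20.4 to 40.5) in osa RNAi and 16.6 times (14.0 to 19.7) in wild type. The earmuff gene (erm), which is active in INPs, had overlapping bounds in the libraries, at 41.8 FPKM in osa RNAi and 44.7 in wild type. Per erm transcript level, D stood at 0.568 (0.528 to 0.611) in osa RNAi and 1.84 (1.73 to 1.96) in wild type, and ey at 0.0198 (0.0141 to 0.0279) and 0.111 (0.0933 to 0.131) in osa RNAi and wild type. asense (ase), a neural progenitor gene, was itself lower (27.7 FPKM in osa RNAi and 39.4 in wild type). Set against ase, D was 2.43-fold lower (2.18 to 2.72) and ey 4.20-fold lower (2.86 to 6.18). For scro the same comparison gave 1.39 in osa RNAi and 1.51 in wild type, with overlapping intervals. Of the 7 INP marker genes taken up below, erm and ase were the 2 that did not pass the rule. ham, tap, hbn and opa passed as lower, as D did. ham stood at 0.759 times D in osa RNAi and 0.607 times D in wild type. tap had 27.2 FPKM in osa RNAi and 81.4 in wild type, beside 23.8 and 82.3 for D. The outcome therefore depends on the marker chosen. The part of INP content in the D and ey differences was not tested.

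**Figure D3:**
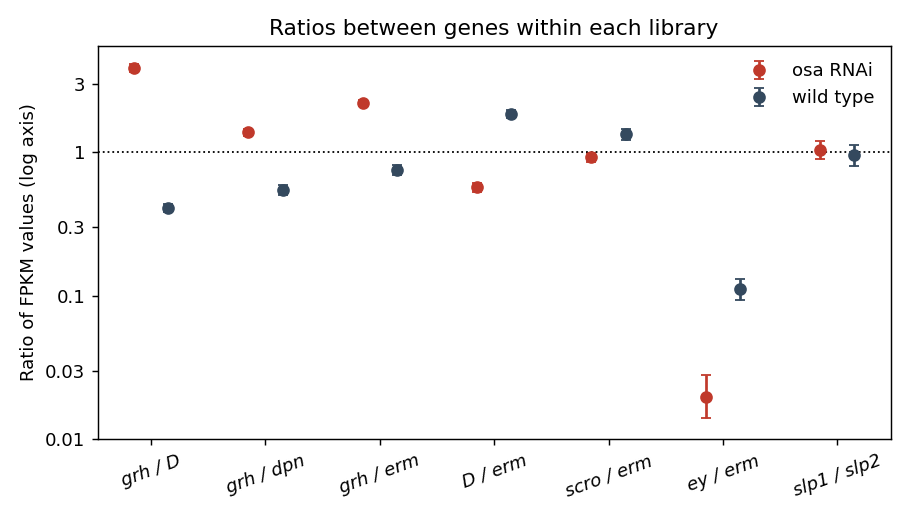
Ratios of FPKM values (log axis) between pairs of genes within the osa RNAi library (red, left) and the wild type library (dark, right), with 95% counting intervals; the dotted line marks equal FPKM. The ratio of grh to D crosses the line, at 3.88 in osa RNAi and 0.408 in wild type, and the ratio of slp1 to slp2 stays beside it.

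Marker lists of cells that the sorts could hold went in differing directions beside D and ey. These lists too were chosen with earlier results known, so their counts and sums do not measure cell content. Of 7 INP marker genes, D included, 5 were at least 2-fold lower and none was higher, with a summed level of 140 FPKM in osa RNAi and 343 FPKM in wild type; opa was at 0 in osa RNAi. Of 6 markers of ganglion mother cells and newborn neurons, 3 were lower (nerfin-1, Hey and dap), with sums of 94.3 FPKM in osa RNAi and 154 FPKM in wild type and no marker at 0. Of 10 neuron markers 2 of the 6 measured were lower (Snap25 and Rdl) and none was higher, while Syt1 (1.63 FPKM in osa RNAi and 0.578 in wild type) and VGlut (2.61 FPKM in osa RNAi and 0.940 in wild type) lay on the higher side with bounds apart, short of the rule. The list had sums of 39.4 FPKM in osa RNAi and 58.9 FPKM in wild type; Gad1 was at 0 in osa RNAi and para in wild type. Glial markers summed to 238 FPKM in osa RNAi and 287 FPKM in wild type. Nearly all of both sums was Eaat1 (115 FPKM in osa RNAi and 126 in wild type) and nrv2 (120 and 156 FPKM). repo, which defines most glia, was at 0.709 FPKM in osa RNAi and at 0 in wild type. Of 3 measured genes 1, gcm, was lower. Of 8 haemocyte markers 3 were at 0 in osa RNAi and 4 in wild type, and they summed to 1.08 and 4.87 FPKM. He, the 1 measured, was lower, at 0 in osa RNAi. Most of the wild type sum was He, at 4.29 FPKM on 20 implied reads. The optic lobe and eye disc markers summed to 143 FPKM in osa RNAi and 122 FPKM in wild type. Of 7 measured genes 1 was higher, l(1)sc, and 2 were lower, Optix and ato. The higher sum in osa RNAi rests on l(1)sc alone, at 77.6 FPKM in osa RNAi and 19.8 in wild type. The part of these cells in the D and ey differences was not tested.

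The genes ham and opa, whose proteins end stages of the INP sequence, also differed. ham had 18.0 FPKM (17.0 to 19.1) in osa RNAi and 49.998 FPKM (47.8 to 52.1) in wild type, close in fold to D, so that ham per D was 0.759 (0.700 to 0.823) in osa RNAi and 0.607 (0.574 to 0.643) in wild type. opa was listed at 0 in osa RNAi and had 22.5 FPKM (20.8 to 24.2) in wild type. A listed 0 alone is not evidence of absence here, since all 13 mitochondrial genes are at 0 in both libraries. Unlike them, opa was counted in wild type, on 716 implied reads. Why it is at 0 in osa RNAi was not tested. ham and opa belong to a list of 9 genes with osa, brm, mor, Snr1, erm, ase and the homeobox gene hbn. Of these 9 genes, 3 were lower (ham, opa and hbn) and none was higher. Their median difference was −0.49 beside 0.04 over all genes compared. All 3 lower genes were also counted among the INP markers above, so the counts share genes. The list and its median include osa itself, the RNAi target, which fell short of the rule at −0.96. The complex genes brm, mor and Snr1 did not pass the rule.

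The wider set of optic lobe temporal factors held more lower than higher genes. Of its 15 genes, 13 had a mean of at least 1 FPKM, 6 of these were at least 2-fold lower, none was higher and 7 did not pass. Their median difference was −0.62 beside 0.04 over all genes. Leaving out D, ey, slp1, slp2 and scro, 4 of 8 were lower and the median was −0.61. Of those 4, opa, hbn and gcm were also counted as lower in lists above. hbn, a paired-type homeobox gene, had 1.49 FPKM in osa RNAi and 22.5 in wild type. The zinc-finger gene Oaz had 0.292 FPKM in osa RNAi and 7.04 in wild type, and the glial determinant gene gcm 1.05 and 3.45 FPKM in osa RNAi and wild type. On the other side of 0, hth, which opens the optic lobe sequence, had 16.8 FPKM in osa RNAi and 9.62 in wild type, tll, which comes last in it, 24.9 and 17.0 FPKM, and klu 23.6 and 19.8 FPKM in osa RNAi and wild type, none of them past the rule.

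**Figure D4:**
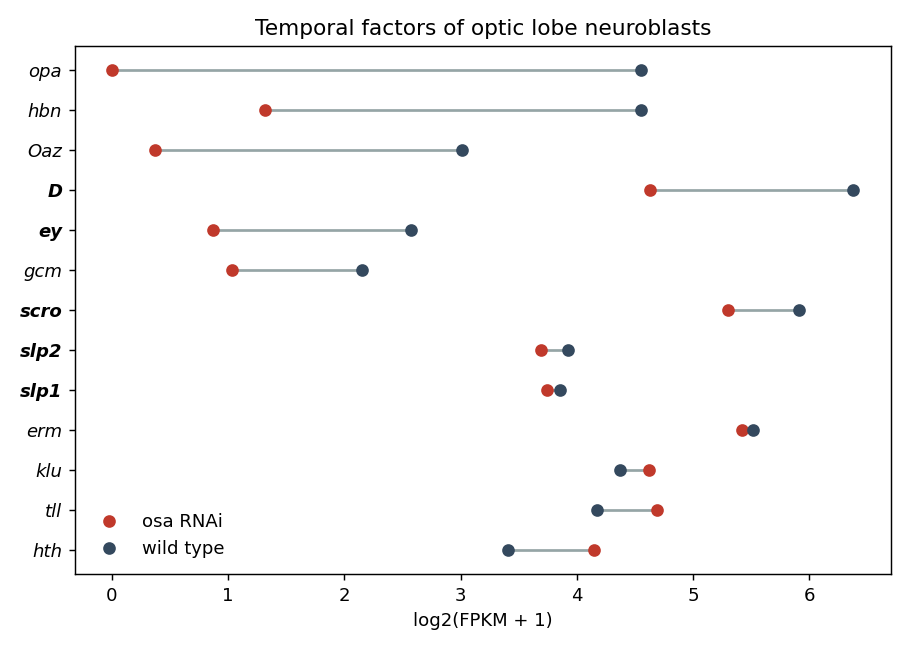
log2(FPKM + 1) of the 13 measured optic lobe temporal factor genes in osa RNAi (red) and wild type (dark), 1 library each, with the lowest difference at the top; bold names are the genes followed here. opa, hbn and Oaz have the longest lines, and slp1, slp2 and erm nearly coincide between libraries.

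Relatives of the 6 genes did not share one direction. Among 8 Sox genes SoxN, another SoxB gene active in the nervous system, was 1.78-fold higher (1.67 to 1.90), at 60.1 FPKM in osa RNAi and 33.7 FPKM in wild type, and did not pass the rule. SoxN thus stood at 2.53 times D in osa RNAi and 0.410 times D in wild type. Sox14 had 2.15 and 2.13 FPKM in osa RNAi and wild type, and the other 5 Sox genes had a mean below 1 FPKM. Among 10 Pax genes 7 were at 0 in both libraries. The second Pax6 gene toy had 1.18 FPKM (0.808 to 1.56) in osa RNAi and 0.786 FPKM (0.393 to 1.18) in wild type, with overlapping bounds and few reads, and sv was lower at 0.352 and 1.72 FPKM in osa RNAi and wild type. Of 7 measured forkhead genes 1 was higher, the insulin pathway factor gene foxo, at 9.84 FPKM in osa RNAi and 2.86 in wild type, while jumu had 41.2 and 33.4 FPKM in osa RNAi and wild type. Of 10 NK homeobox genes scro was the most abundant in both libraries, ahead of NK7.1 at 3.93 FPKM in osa RNAi and 3.92 in wild type. The grh relative gem had 2.97 FPKM in osa RNAi and 2.34 in wild type.

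Over only 2 libraries, likeness can be measured just as the distance between genes in the plane of their log2(FPKM + 1) values. Among 130 other genes of the lists, tap, a proneural-type bHLH gene, was nearest to D (distance 0.19, 27.2 FPKM in osa RNAi and 81.4 in wild type), followed by Optix (0.65). CycE (0.49) and SoxN (0.61) were nearest to grh, and Snap25 and gcm (both 0.45) to ey. brm (0.41) and erm (0.42) were nearest to scro. Eip93F and chinmo, which are temporal genes of older and younger neuroblasts, were nearest to both slp1 (0.20 and 0.42) and slp2 (0.17 and 0.36).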

How the data were processed

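Poly(A) RNA of sorted cells was made into strand-specific libraries with dUTP, per the labels' protocols. Tools named, without their roles, in the submitters' processing notes are DESeq 1.8.3, HTSeq, Cufflinks 1.3.0, TopHat 1.4.1 and BWA 0.6.1. Genome build, annotation and use of strand in counting: not given in the sources used here. Coordinates are those of the files, counted from 1. No listed locus overlaps those of the 6 genes.

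The authors deposited FPKM values with bounds and a status per gene, per the file headers. A further deposited table holds the authors' signal (counts divided by size factors), fold ratio, log2 fold (both wild type over osa RNAi), p-value and adjusted p-value. Bounds lay at FPKM ± 2 FPKM/√n. The value n was whole within 0.02 for 93.4% of 1018 genes in osa RNAi and 92.8% of 846 in wild type with 1 transcript and under 50 reads, and was used as implied reads; for genes with several transcripts it is approximate. Ratio intervals (95%) come from n. Differences in log2(FPKM + 1) are osa RNAi minus wild type; for low genes this scale understates the change. With 1 library per genotype no test was run. The rule was run on simulated counts that hold counting error only. Such counts cannot show how far libraries of 1 genotype differ. Reads are PCR products without molecular identifiers.

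The 6 genes and the 17 gene lists were chosen with earlier results of these data known. All 136 symbols of the lists were found in the files. Named were the 6 genes, osa, list genes past the rule and up to 3 further genes per list by mean FPKM. Genes beside slp1 and slp2 and the 2 list genes nearest to each member were also named. Chosen after their values were seen were toy, so, dan, hth, tll, Syt1, chinmo, para, Gad1, repo, ase, insc and btd. Python 3.11.15, numpy 2.4.6 and pandas 2.3.3 were used. Alternatives were other pseudocounts, scalings, filters and thresholds, and, chosen after seeing the data, implied reads.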

Additional observations from a re-analysis of the deposited data

How the results depend on the processing

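No paired analysis was possible because each genotype has 1 library, and leaving out a replicate was not possible for the same reason. D passed as lower in all 11 settings, which include the main rule and other thresholds. Settings that only loosen the rule, such as a threshold of 1.5-fold, could not fail a gene that already passed. grh passed as higher in 10, failing at a threshold of 3-fold. ey passed as lower in 9, failing with a pseudocount of 5 and at a mean of at least 5 FPKM. scro passed in 1, at a threshold of 1.5-fold, and slp1 and slp2 in none. No difference of the 6 genes changed sign. With a pseudocount of 5 the differences were −1.60 for D, 1.33 for grh and −0.77 for ey, and with 0.1 that of ey was −2.44. Dividing by the upper quartile moved the median of all genes by 0.11 and gave −1.64 for D and 1.54 for grh. As log2 ratios of implied reads per library total, chosen after seeing the data, ey was at −2.73 and scro at −0.38. On log2(FPKM + 1) and on log2(FPKM + 5), 2 genes, D and ey, swapped places in the order of change. Genes higher and lower in osa RNAi numbered 556 and 485, against 154 and 109 with a pseudocount of 5, 261 and 180 at a mean of at least 5 FPKM, 1219 and 1023 at 1.5-fold, and 286 and 246 at 3-fold. These shifts follow from the construction of the settings, except for implied reads, where the cause was not tested. Depth limits ey the most, at 34 implied reads in osa RNAi.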

Other observations

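Genes that work with Eyeless in the eye field showed mixed values. Of 12 genes 9 were measured, 2 were at least 2-fold lower (ey and Optix) and none was higher, with a median difference of −0.79. Optix had 19.6 FPKM in osa RNAi and 54.1 in wild type. so had 0.355 FPKM in osa RNAi and 1.71 in wild type, just short of the rule, and dan 2.45 and 5.62 FPKM in osa RNAi and wild type. In the other direction eya had 16.2 FPKM in osa RNAi and 7.87 in wild type, also just short of the rule. hth was higher too, at 16.8 FPKM in osa RNAi and 9.62 in wild type, and did not pass.

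Temporal factors that neuroblasts use outside the INP sequence included genes that were higher, as grh was. Of 14 genes 9 were measured, 2 passed the rule as higher and none as lower, with a median difference of 0.63. Imp, an RNA-binding protein gene of young neuroblasts, was 4.21-fold higher (3.60 to 4.93) and svp, a nuclear receptor gene, 3.17-fold higher (2.72 to 3.69). Short of the rule, Syp, an RNA-binding protein gene of older neuroblasts that the files name CG17838 and the most abundant of the list, had 729 FPKM in osa RNAi and 391 in wild type, and chinmo, a gene of young neuroblasts, 9.08 and 14.5 FPKM in osa RNAi and wild type. Genes of young and of older neuroblasts thus lay on both sides, and no direction of age is drawn. cas had 400.5 FPKM in osa RNAi and 210.3 in wild type, and br, at 27.0 and 27.1 FPKM in osa RNAi and wild type, hardly differed.

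Genes that mark the progeny of these lineages were lower in part. Of 12 progeny identity genes 7 were measured, 3 were at least 2-fold lower (bsh, run and ap), 1 was higher (Lim3) and 3 did not pass. The homeobox gene bsh was listed at 0 in osa RNAi and had 3.52 FPKM in wild type. run had 0.796 FPKM in osa RNAi and 13.5 in wild type. ap had 0.0313 FPKM in osa RNAi, on about 1 implied read, and 7.61 FPKM in wild type. Lim3 had 3.15 FPKM in osa RNAi and 0.320 FPKM, on 6 implied reads, in wild type.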
